A study of Mus musculus with 15 samples.

Results

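Ins1, Ins2 and Iapp, the genes of both mouse insulins and of islet amyloid polypeptide, were followed through 15 RNA-seq libraries of bulk mouse islets. The members were the rows of the deposited count table whose gene symbol was Ins1, Ins2 or Iapp, 3 of 24060 rows, and all 3 passed the filter on low counts. The mice were of the FVB/NJ strain and 9 to 10 weeks old, and each of the 5 groups held 3 libraries. The hIAPP:hCAST group carried human IAPP driven by the insulin II promoter together with human CAST, whose promoter is given there only as an insulin promoter. The hIAPP group carried the human IAPP transgene alone, the rIAPP group a rodent IAPP transgene, and the hCAST group human CAST alone, each behind the insulin II promoter. The WT group carried no transgene. Libraries are named by group and a number in accession order, which pairs nothing. The numbers in the sample titles fall into 3 separate ranges, shared by hIAPP:hCAST with hIAPP and by hCAST with WT, and with rIAPP on its own. Between these ranges, colony or line cannot be told apart from the transgene. The sources do not state that each library came from a separate animal, so p-values measure the spread between these libraries.

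Insulin is made as a precursor in beta cells, enters the endoplasmic reticulum, folds there, and is cut to its mature form in secretory granules by prohormone convertases. Rodents have a pair of insulin genes: Ins2 has the gene structure shared with other mammals, and Ins1 is a retrotransposed copy of it. Islet amyloid polypeptide is stored in the same granules and is released with insulin. The human peptide can aggregate into islet amyloid, whereas the rodent peptide, with prolines in the region that matters for aggregation, does not. CAST encodes calpastatin, the inhibitor of the calpain proteases. Mouse Iapp is the gene from which both the endogenous transcript and any read of a rodent transgene that matches it would be counted. In rIAPP libraries endogenous and transgenic Iapp therefore cannot be told apart, and reads of the human transgenes were not analysed here.

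The 3 genes were among the most abundant of the islet. Once Rn45s, Lars2 and Mir6236, here called ribosomal-rich, were set aside, the members held between 10.9% and 22.2% of a library's remaining counts, and the lowest count of any member in any library was 99192, of Iapp in WT 2. The libraries held 28287011 to 40191501 counts. Ribosomal-rich genes took 94.3% of the counts in WT 2, 68.9% in WT 3 and 67.7% in rIAPP 2, against 0.286% to 11.8% in the other 12 libraries. WT 2 retained 1667190 counts outside those genes. Member tests and gene list counts are in part also given without these libraries. WT 1 is then the only WT library, and rIAPP 1 and rIAPP 3 remain of rIAPP. Values against WT from those fits therefore rest on a single WT library. Cell type marker counts, correlations between genes and values of neighbouring genes are given with all 15 libraries only. Acinar marker genes, which belong to the enzyme-secreting tissue around islets, held 1.12% to 14.3% of the remaining counts for hIAPP:hCAST, 7.01% to 13.7% for hIAPP, 11% to 14.5% for rIAPP, 4.77% to 9.82% for hCAST and 1.78% to 7.43% for WT. In bulk islets, fewer beta cells and less RNA per beta cell cannot be told apart.

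The coding sequences of Ins1 and Ins2 are shown because reads that match both genes could be counted on either, or on neither. Ins1 lies on chromosome 19 (chr19:52264297-52265476, plus strand, GRCm38), Ins2 on chromosome 7 (chr7:142678656-142743381, minus strand) and Iapp on chromosome 6 (chr6:142298423-142303961, plus strand), all annotated by GENCODE as protein coding. The span of Slco1a5, an organic anion transporter gene, covers Iapp, but no exon of another gene overlaps an exon of any of the 3 members. In an alignment of both whole coding sequences, 302 columns were identical, 25 were mismatched and 6 were gapped, which is 92.4% identity of the aligned bases. The stretch after the first 60 coding bases is printed from the GENCODE transcripts, and capitals mark the bases that differ between the genes or are absent from the other.
Ins1: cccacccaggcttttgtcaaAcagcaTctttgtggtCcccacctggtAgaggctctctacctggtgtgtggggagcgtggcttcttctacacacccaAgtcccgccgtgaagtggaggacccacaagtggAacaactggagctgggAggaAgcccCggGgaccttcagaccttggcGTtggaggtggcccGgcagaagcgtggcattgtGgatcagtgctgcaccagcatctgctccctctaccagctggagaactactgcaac
Ins2: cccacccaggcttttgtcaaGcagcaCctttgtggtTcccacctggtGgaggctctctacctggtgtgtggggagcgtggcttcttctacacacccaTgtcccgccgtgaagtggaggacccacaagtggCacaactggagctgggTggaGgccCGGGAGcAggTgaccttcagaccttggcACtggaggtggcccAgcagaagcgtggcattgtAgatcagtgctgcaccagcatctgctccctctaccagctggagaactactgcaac
The longest identical run was 56 bases. Of the 1027 windows of 36 bases in the whole Ins1 transcript, 35 (3.41%) were also found in an Ins2 transcript. So were 0.691% of the 50-base windows and none of the 988 windows of 75 bases. The coding part, with the stop codon, is 327 of the 1062 bases of that Ins1 transcript. The shares within the coding part alone were not computed. Neither the read length nor how reads with several matches were handled is given in the sources used here, so the separation of Ins1 from Ins2 counts is limited to what these windows show. The Iapp stretch below encodes the 37 codons of the mature peptide, with the proline codons 25, 28 and 29 of the mouse peptide in capitals, since rodent prolines in this region are among the differences from the aggregating human peptide.
Iapp: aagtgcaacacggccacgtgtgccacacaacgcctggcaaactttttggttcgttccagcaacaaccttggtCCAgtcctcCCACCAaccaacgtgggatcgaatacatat

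The promoters of Ins1 and Iapp are shown as background. Reads of the rodent transgene may be counted on Iapp in rIAPP libraries, and no link of these promoters to the levels was tested. Neither sequence is the insulin II promoter named for the transgenes, and no Ins2 promoter was available here. Both windows are the 250 bases before the RefSeq start site (GRCm38.p6, chr19:52264047-52264296 and chr6:142298175-142298424, both plus strand). Capitals mark matches, on either strand, of CATCTG, the letters of an E box, and of TAAT, the core letters of homeodomain factors such as Pdx1.
Ins1: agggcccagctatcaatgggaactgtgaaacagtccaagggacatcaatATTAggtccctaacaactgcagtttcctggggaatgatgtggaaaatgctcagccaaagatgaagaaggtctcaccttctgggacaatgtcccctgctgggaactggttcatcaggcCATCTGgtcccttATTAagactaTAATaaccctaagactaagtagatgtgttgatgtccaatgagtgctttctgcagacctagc
Iapp: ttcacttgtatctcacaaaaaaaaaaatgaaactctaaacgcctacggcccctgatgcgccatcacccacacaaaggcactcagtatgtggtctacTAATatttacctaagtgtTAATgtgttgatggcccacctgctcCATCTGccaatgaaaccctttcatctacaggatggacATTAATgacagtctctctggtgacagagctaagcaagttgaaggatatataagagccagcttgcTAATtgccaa
CATCTG occurred once in each window, 84 bases before the RefSeq start of Ins1 and 111 bases before that of Iapp. Whether islet transcripts begin at these starts was not examined, so the windows may cover unlike parts of both promoters. It was present in 14.4% of 32851 promoters of the same length. TAAT or its reverse complement ATTA, which can overlap each other, occurred 3 times before Ins1 and 5 times before Iapp, and 17.3% of all promoters held it at least 3 times. TATAA, read on both strands, was present 63 bases before Ins1 and 27 bases before Iapp, and in 22.8% of promoters. These are matches of letters, not binding sites.

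Ins1, the retrotransposed insulin gene, was lowest in rIAPP islets and highest in WT islets. Levels are in CPM, counts scaled to library size by TMM. The hIAPP:hCAST libraries 1, 2 and 3 had 40973, 32404 and 38116 CPM, and the hIAPP libraries 39524, 34466 and 34747. The rIAPP libraries had 20476, 15297 and 22619 CPM, the hCAST libraries 47694, 48056 and 43639, and the WT libraries 53973, 52118 and 52039. The rIAPP libraries all lay below every other library, the WT libraries all lay above every other library, and the libraries of hIAPP:hCAST and hIAPP overlapped. In means, from low to high, the order was rIAPP at 19464 ± 3765 CPM, hIAPP at 36246 ± 2843, hIAPP:hCAST at 37164 ± 4363, hCAST at 46463 ± 2452 and WT at 52710 ± 1095 (SD, n = 3 each).

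Ins2, the ancestral insulin gene, had the same groups at both ends. The hIAPP:hCAST libraries had 38665, 32836 and 36675 CPM and the hIAPP libraries 40316, 37974 and 35493. The rIAPP libraries had 26428, 22262 and 25761 CPM, the hCAST libraries 50138, 48678 and 43863, and the WT libraries 63073, 66686 and 56919. Every WT library exceeded every hCAST library, and these in turn exceeded all libraries of the groups with an IAPP transgene. In means, hIAPP:hCAST stood at 36059 ± 2963 CPM, hIAPP at 37928 ± 2412, rIAPP at 24817 ± 2237, hCAST at 47560 ± 3284 and WT at 62226 ± 4938 (SD, n = 3 each). The neighbours hIAPP and hIAPP:hCAST in this order overlapped, as they did for Ins1.

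Iapp did not follow the insulin genes. The hIAPP:hCAST libraries had 22675, 23278 and 25025 CPM and the hIAPP libraries 23124, 23515 and 23318. The rIAPP libraries had 34777, 39142 and 37468 CPM, the hCAST libraries 23205, 23621 and 24221, and the WT libraries 23835, 43427 and 23549. All libraries but 4 therefore lay between 22675 and 25025 CPM, and those above were the 3 of rIAPP and WT 2, the library with 94.3% ribosomal-rich counts. The rIAPP mean was 37129 ± 2202 CPM, and the WT mean of 30270 ± 11395 CPM owed its height and spread to WT 2 (SD, n = 3 each). The means of hIAPP:hCAST (23659 ± 1221), hIAPP (23319 ± 195) and hCAST (23682 ± 511) differed from each other by less than the larger SD of each pair.

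**Figure D1:**
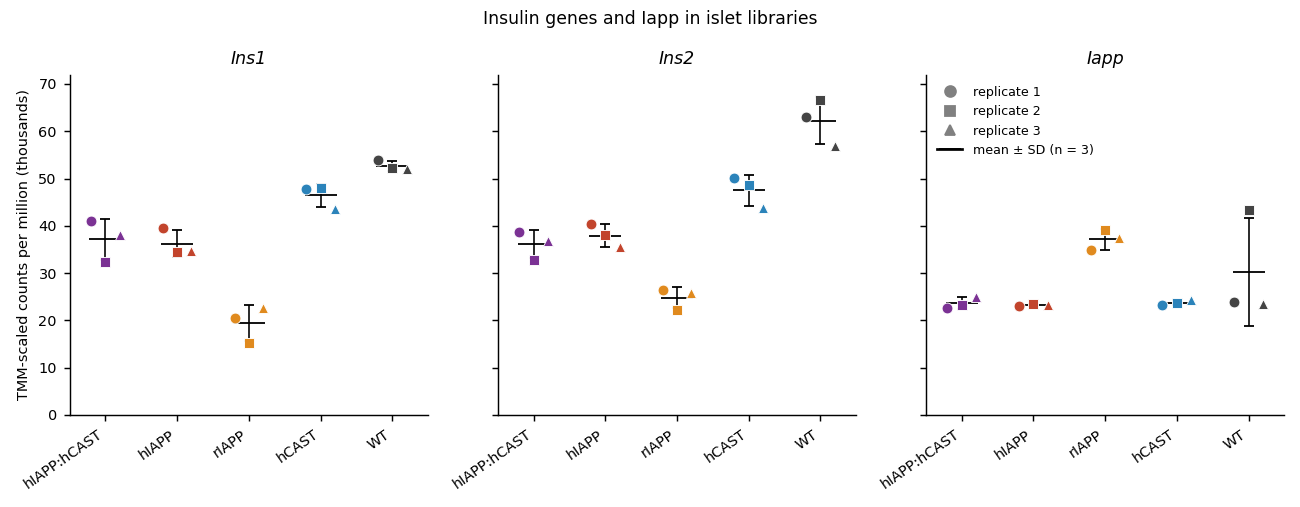
TMM-scaled CPM, on an axis in units of 1000, of Ins1, Ins2 and Iapp in each library (points, by replicate), with the mean and SD of each group of 3 (bars). The rIAPP libraries are lowest for both insulin genes, at 15297 to 22619 CPM for Ins1, and high for Iapp at 34777 to 39142 CPM, where WT 2 stands at 43427.

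In rIAPP against WT islets, Ins1 fell by 63.1% and Ins2 fell by 60.1%, while Iapp did not pass the test. The log2 fold change was -1.44 ± 0.137 (SE) for Ins1 (adjusted p = 1.33e-06) and -1.33 ± 0.114 for Ins2 (adjusted p = 4.88e-07), by the quasi-likelihood test of edgeR with Benjamini-Hochberg adjustment over 15460 genes. In this comparison 23.3% of all tested genes were called, 10.7% higher and 12.6% lower, and the groups did not overlap for 40.6%. Iapp had a log2 fold change of 0.29 ± 0.174 (adjusted p = 0.24), and its rIAPP libraries overlapped WT through WT 2. Without WT 2 the Iapp value was 0.66 ± 0.093 with an edgeR adjusted p of 0.000147. Without all 3 ribosomal-rich libraries, where WT 1 is the only WT library, the Iapp value was 0.59. In that fit Ins1 was at -1.33 and Ins2 at -1.28. The acinar markers stood higher in rIAPP, with a median log2 fold change of 1.38 over 16 genes and 0 of them called. With the acinar genes removed before scaling, Ins1 stood at -1.44 and Ins2 at -1.33. Removing these rows would leave any dilution of islet RNA by acinar tissue in place, so the part of acinar tissue was not tested. Endothelial and stellate markers rose, 6 of 8 each. The endothelial share of counts was 0.113% to 0.121% in rIAPP libraries and 0.0758% to 0.0992% in WT libraries, and the stellate share 0.128% to 0.148% in rIAPP libraries and 0.0383% to 0.0645% in WT libraries. Their part in the insulin values was not tested.

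The human IAPP transgene was compared with WT on its own and together with human CAST. In hIAPP against WT islets Ins1 fell by 31.2% (log2 fold change -0.54 ± 0.135, adjusted p = 0.0173) and Ins2 fell by 39% (-0.71 ± 0.113, adjusted p = 0.00103), against 11.9% of all genes called in edgeR, 6.27% higher and 5.59% lower. The groups did not overlap for any of the 3 members, as for 33.1% of all genes. For Iapp the gap was narrow, with hIAPP 2 at 23515 CPM and WT 3 at 23549 CPM. Without hIAPP 2 or without hIAPP 3 the Ins1 call was lost, at adjusted p = 0.0658 and 0.0627, with log2 fold changes of -0.51 in both fits. Iapp, at -0.38 ± 0.174, had an adjusted p of 0.17, and without WT 2 it was at -0.02 (adjusted p = 0.899).

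In hIAPP:hCAST against WT islets Ins2 fell by 42.1%, with a log2 fold change of -0.79 ± 0.113 (edgeR adjusted p = 0.0015), where 3.48% of genes were called, 1.69% higher and 1.79% lower, and 19.1% did not overlap. Ins1 was at the threshold, with -0.50 ± 0.135 and an adjusted p of 0.049, and each of the 6 fits that left out a library of either group gave an adjusted p from 0.0501 to 0.181. Iapp was at -0.36 ± 0.174 (adjusted p = 0.279) and at 0.00 without WT 2. Macrophage markers moved in both of these comparisons: 7 of 11 tested rose in hIAPP:hCAST and 11 of 11 in hIAPP, each against WT, and their summed share of counts was 0.0275% to 0.0431% in hIAPP:hCAST, 0.0461% to 0.0591% in hIAPP and 0.0104% to 0.0152% in WT. Stellate markers also rose in hIAPP, 6 of 8, with a share of 0.121% to 0.152% in hIAPP libraries against 0.0383% to 0.0645% in WT libraries, and 1 of 8 rose in hIAPP:hCAST. Schwann-cell markers rose in 2 of 5 in hIAPP, and the 16 acinar markers had a median of 1.02 there with 0 called. Their part in the insulin values was not tested.

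The hCAST islets, whose transgene uses the same promoter without an IAPP product, were set against WT. Ins2 differed from WT by -23.6% in the fitted values, with a log2 fold change of -0.39 ± 0.112 and a 95% interval from -0.62 to -0.15, and its adjusted p was 0.56 in edgeR. The DESeq2 alternative gave -0.39 with an adjusted p of 0.0148. The hCAST and WT libraries did not overlap for Ins1 or for Ins2, which was so for 14.2% of all tested genes. Ins1 was at -0.18 ± 0.134 (adjusted p = 0.844) and Iapp at -0.35 ± 0.174 (adjusted p = 0.701), the second at 0.00 without WT 2. In edgeR 0.0194% of genes were called in this comparison, 3 genes in all, none of them a member, and 1133 genes had an unadjusted p below 0.05.

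The species of the IAPP transgene was compared directly in hIAPP against rIAPP islets. Both insulin genes were higher with the human transgene, Ins1 with a log2 fold change of 0.90 ± 0.135 (edgeR adjusted p = 0.000217) and Ins2 with 0.61 ± 0.112 (adjusted p = 0.0012). Iapp was lower with the human transgene, at -0.67 ± 0.174 (edgeR adjusted p = 0.0158). Its mean in hIAPP, 23319 CPM, lay near that of hCAST at 23682, whereas rIAPP stood at 37129. In rIAPP, reads of the rodent transgene may be counted on Iapp. Line also cannot be told apart from transgene between these groups. All 3 members were called, beside 13% of all genes, 7.71% higher and 5.28% lower. The groups did not overlap for any of them, as for 35.5% of all genes. The Iapp call was lost without hIAPP 1 (adjusted p = 0.0571) and without rIAPP 2 (adjusted p = 0.0603), and the value then was -0.66 and -0.63. The hIAPP:hCAST islets differed from rIAPP in the same directions, at 0.93, 0.54 and -0.65 for Ins1, Ins2 and Iapp, where 18.2% of genes were called, 9.98% higher and 8.21% lower, and 33.8% did not overlap. Both comparisons share the rIAPP libraries. The Iapp call of hIAPP:hCAST against rIAPP was lost without hIAPP:hCAST 1 (edgeR adjusted p = 0.052) and without rIAPP 2 (adjusted p = 0.0532), at -0.62 and -0.61. Of the marker lists, in hIAPP against rIAPP macrophage genes rose in 11 of 11 (median 1.80), stellate genes rose in 3 of 8 and endothelial genes fell in 3 of 8. In hIAPP:hCAST against rIAPP macrophage genes rose in 10 of 11, endothelial genes fell in 8 of 8 and stellate genes fell in 4 of 8. Their part in the values of the members was not tested.

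Against hCAST, the rIAPP islets showed the same 3 calls with a group whose libraries all had 0.491% ribosomal-rich counts or less. Ins1 was at -1.26 ± 0.136 (edgeR adjusted p = 4.91e-06), Ins2 at -0.94 ± 0.113 (adjusted p = 1.46e-05) and Iapp at 0.65 ± 0.174 (adjusted p = 0.0127), with 22.4% of genes called, 10.6% higher and 11.8% lower, and 45.7% without overlap. In hIAPP against hCAST no member was called, at -0.36 for Ins1 (adjusted p = 0.126), -0.33 for Ins2 (adjusted p = 0.0922) and -0.02 for Iapp (adjusted p = 0.963), with 7.19% of genes called, 5.04% higher and 2.15% lower. Both insulin genes were without overlap there, as were 32.7% of all genes. Without the 3 ribosomal-rich libraries, none of which belongs to either group, Ins1 and Ins2 passed there, at -0.36 (adjusted p = 0.0468) and -0.33 (adjusted p = 0.0397). DESeq2 called both too, at adjusted p = 0.0376 and 0.00829, as did edgeR on these groups alone, at 0.0266 and 0.0384. In rIAPP against hCAST endothelial markers rose in 8 of 8, stellate in 4 of 8 and macrophage markers fell in 2 of 11. In hIAPP against hCAST macrophage markers rose in 10 of 11, stellate in 3 of 8 and Schwann-cell markers in 2 of 5. The part of these in the insulin values was not tested.

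Calpastatin on the human IAPP background was not accompanied by a called change of any member. In hIAPP:hCAST against hIAPP the log2 fold changes were 0.04 for Ins1, with a 95% interval from -0.25 to 0.32, -0.07 for Ins2, from -0.31 to 0.16, and 0.02 for Iapp, from -0.35 to 0.39. Adjusted p was 0.957, 0.878 and 0.985 in edgeR, the libraries of both groups overlapped for all 3 genes, and 0.466% of all genes were called, 0.0906% higher and 0.375% lower, with 15.9% not overlapping. In hIAPP:hCAST against hCAST, where human IAPP is the added transgene, Ins1 was at -0.32 (adjusted p = 0.432), Ins2 at -0.40 (adjusted p = 0.134) and Iapp at 0.00 (adjusted p = 1), with 0.75% of genes called, 0.517% higher and 0.233% lower. The libraries of these groups did not overlap for Ins1 and Ins2, as for 13.3% of all genes. DESeq2 called Ins2 in this comparison at -0.40 (adjusted p = 0.00264). Macrophage markers rose there in 6 of 11, and their part was not tested. The interaction asked whether human IAPP made a different change with human CAST present (hIAPP:hCAST minus hCAST) than without it (hIAPP minus WT). It was 0.22 ± 0.19 for Ins1, 0.31 ± 0.159 for Ins2 and 0.37 ± 0.245 for Iapp, at edgeR adjusted p of 0.769, 0.591 and 0.682. With 1 library of these groups left out, the Iapp interaction ranged from 0.026 to 0.53. It ranged from 0.14 to 0.31 for Ins1 and from 0.26 to 0.38 for Ins2. The interaction was called for 0 of 15460 genes by edgeR, and 1346 had an unadjusted p below 0.05.

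**Figure D2:**
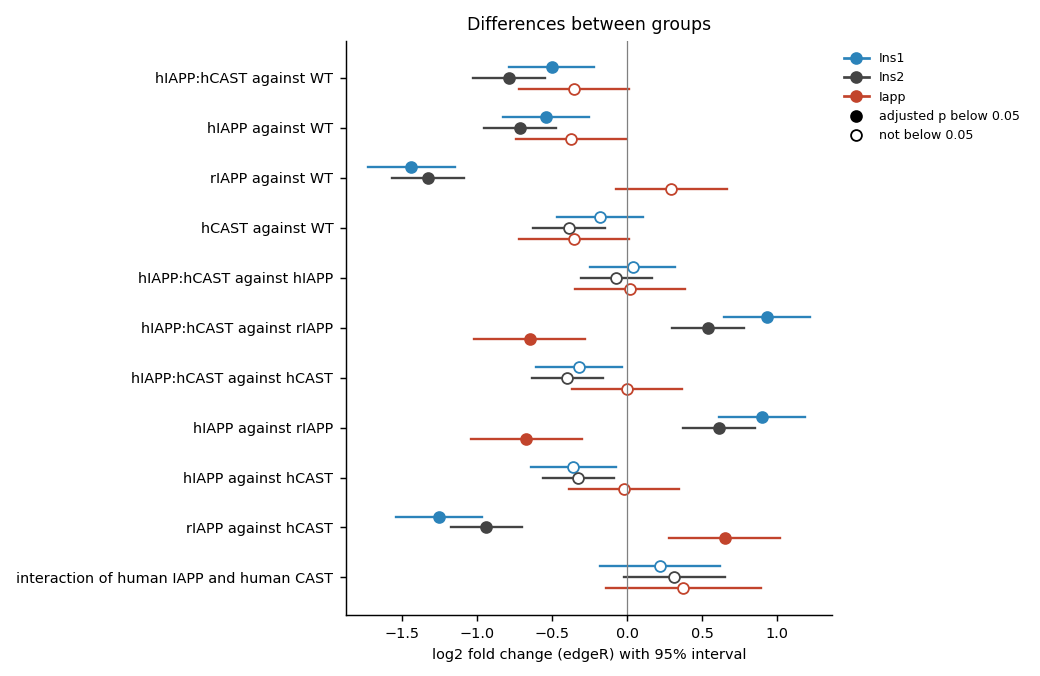
Log2 fold change (points) and 95% interval (lines) of Ins1, Ins2 and Iapp for each pair of groups and for the interaction, from edgeR over all 15 libraries; filled points had an adjusted p below 0.05. Ins1 and Ins2 lie left of 0 in rIAPP against WT at -1.44 and -1.33, and Iapp lies on the other side at 0.29.

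The ratios between the members do not depend on how a library is scaled. Ins2 to Ins1, taken from raw counts, was 0.944, 1.01 and 0.962 in the hIAPP:hCAST libraries and 1.02, 1.10 and 1.02 in the hIAPP libraries. The rIAPP libraries had 1.29, 1.46 and 1.14, the hCAST libraries 1.05, 1.01 and 1.01, and the WT libraries 1.17, 1.28 and 1.09. The rIAPP and WT libraries overlapped at the top, and the 2 lowest ratios were those of hIAPP:hCAST. Over the 5 groups the ratio differed (exact permutation test of F over 1401400 divisions of the libraries, p = 0.00846, and 0.00846 adjusted over 4 ratios). The highest ratios within rIAPP and within WT were those of rIAPP 2 and WT 2, the libraries of those groups with the largest share of ribosomal-rich counts. The other libraries of these groups did not follow that share. WT 3, with 68.9% such counts, was below WT 1 with 9.4%, and rIAPP 3, with 11.8%, was below rIAPP 1 with 1.99%. Leaving out any 1 library gave p from 0.00133 to 0.0191.

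Iapp to summed Ins1 and Ins2 separated rIAPP from the rest. The ratio was 0.285, 0.357 and 0.335 in the hIAPP:hCAST libraries and 0.290, 0.325 and 0.332 in the hIAPP libraries. The rIAPP libraries had 0.741, 1.04 and 0.774, the hCAST libraries 0.237, 0.244 and 0.277, and the WT libraries 0.204, 0.366 and 0.216. Each rIAPP library lay above all 12 others, and WT 2 was the only WT library that was not below all libraries with human IAPP. The groups differed (exact permutation test of F, p = 0.00265, adjusted over 4 ratios p = 0.0053). The mean ratio was 3.34 times as high in rIAPP as in WT on the log scale, with an exact permutation p of 0.10, the smallest that 3 against 3 libraries allow, and 0.167 adjusted over 10 pairs. Without WT 2 the log2 difference was 2.01, against 1.74 with it. Of the 10 pairs of groups, 6 did not overlap in this ratio and 6 did not in Ins2 to Ins1.

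For human IAPP, the ratios were compared with libraries relabelled within each CAST background, 6 against 6. Ins2 to Ins1 was lower by a log2 difference of -0.12 on average, -0.17 against WT and -0.07 against hCAST (exact permutation p = 0.03 over 400 relabelings, 0.06 adjusted over 4 ratios). Iapp to summed insulin was higher by 0.34, with 0.32 against WT and 0.36 against hCAST (exact permutation p = 0.05, adjusted p = 0.0667). Neither passed after adjustment. Leaving out WT 2 moved the difference against WT to 0.59.

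**Figure D3:**
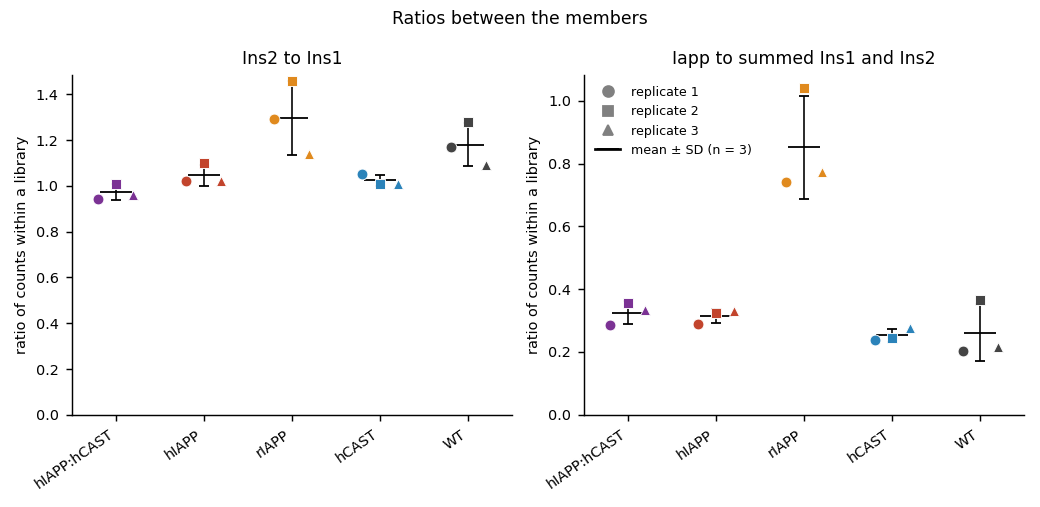
Ratio of Ins2 to Ins1 counts and of Iapp to summed Ins1 and Ins2 counts within each library (points, by replicate), with the mean and SD of each group of 3 (bars). The rIAPP libraries stand at 0.741 to 1.04 in the second ratio, where no other library exceeds 0.366.

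Levels of different genes are comparable only per length, and the order of the 3 members depended on the length used. The deposited FPKM imply lengths of 1018 bases for Ins1, 565 for Ins2 and 695 for Iapp, whereas the reference transcripts of GENCODE measure 1062, 478 and 839 bases. In FPKM, Ins2 was the highest gene of the whole table in all 9 libraries of hIAPP:hCAST, hIAPP and hCAST, at 79190 to 127039, and in WT 1 at 136643. In rIAPP 1 and rIAPP 3 the highest gene was Iapp, at 73825 and 70513 FPKM, above Ins2 at 69009 and 59635. By the FPKM lengths and by coding length Iapp exceeded Ins2 in 3 of 3 rIAPP libraries, and by the GENCODE transcript length in 1 of 3. In every library of the other groups Ins2 exceeded Iapp by each of the 3 lengths. Between the insulin genes, Ins2 exceeded Ins1 in every library by the FPKM lengths and by the GENCODE transcript length. By coding length Ins1 exceeded Ins2 in 3 of 3 hIAPP:hCAST libraries and 2 of 3 hCAST libraries. On the FPKM scale Iapp made up 42.8% to 50.9% of the 3 members' summed level in rIAPP, against 23.1% to 27.1% over the libraries with human IAPP, 19.8% to 22.4% in hCAST and 17.2% to 27.0% in WT.

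Both insulin genes were also read against a list of 16 other beta-cell genes, chosen with earlier results of these data known, among them the glucose transporter Slc2a2, the zinc transporter Slc30a8 and the hormone Ucn3. In rIAPP against WT 16 of 16 fell, with a median log2 fold change of -1.65, and in hIAPP against WT 10 of 16 fell, with a median of -0.61; the median of all tested genes was 0.01 and 0.02. Without the 3 ribosomal-rich libraries the counts were 13 and 5, while calls over all genes fell to 1525 of 16008 in rIAPP against WT, from 3599 of 15460 with them, and to 383 in hIAPP against WT, from 1833. These totals stand behind every such count below, and each such count has WT 1 as its only WT library. The list shares Pdx1, Nkx6-1, Mafa, Pcsk1, Ero1lb, Sytl4 and Slc30a8 with the lists of regulators, processing, folding and granules below. Ins1 moved with this list: the difference between its log2 CPM and the list's mean was 6.92 to 7.16 in all 15 libraries. The same difference for Ins2 spanned 7.27 to 7.61 over rIAPP libraries, 7.08 to 7.47 over WT libraries and 6.90 to 7.17 over the 9 others. For Iapp it was 7.81 to 8.42 in rIAPP and 5.81 to 6.85 elsewhere, the highest of these being WT 2.

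**Figure D4:**
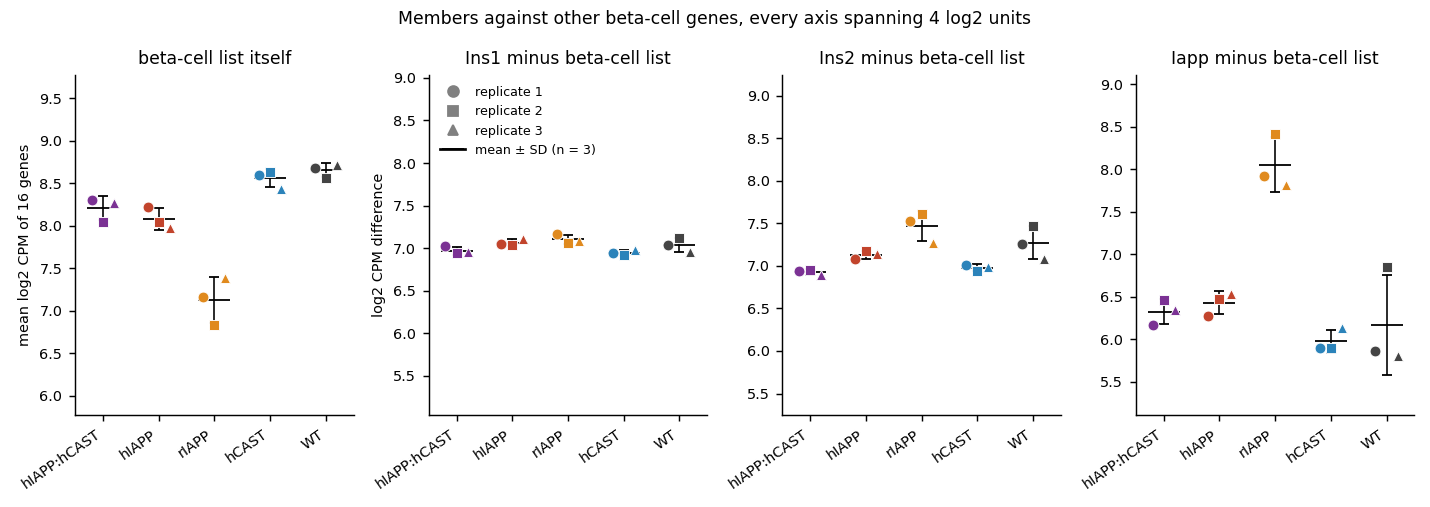
Mean log2 CPM of 16 beta-cell genes, and the log2 CPM of Ins1, Ins2 and Iapp minus that mean, in each library (points, by replicate), with the mean and SD of each group of 3 (bars). Ins1 minus the list spans 6.92 to 7.16 over all libraries, whereas Iapp minus the list reaches 8.42 in rIAPP.

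Scaled so that this list was equal in all libraries, the insulin differences between rIAPP and WT were 0.07 for Ins1 (edgeR adjusted p = 0.739) and 0.20 for Ins2 (adjusted p = 0.351), and Iapp stood at 1.82 (adjusted p = 4.22e-09). That scaling moved the median of all genes by 1.55 in the same comparison, so both insulin genes lay below the median of all genes on that scale as well. Scaling on 12 genes shared by all islet endocrine cells moved it by 0.28 and gave -1.15 for Ins1, -1.03 for Ins2 and 0.60 for Iapp, all called (edgeR adjusted p = 1.5e-05, 4.42e-06 and 0.00816). Those 12 genes were not level themselves under TMM. Against WT, 6 were called lower and 0 higher in rIAPP, and 3 lower and 0 higher in hIAPP. In hIAPP against WT the endocrine scaling left Ins2 at -0.48 (adjusted p = 0.00818) and Ins1 at -0.31 (adjusted p = 0.124). Scaling on the beta-cell list put them at -0.15 and 0.03, and neither was called.

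**Figure D5:**
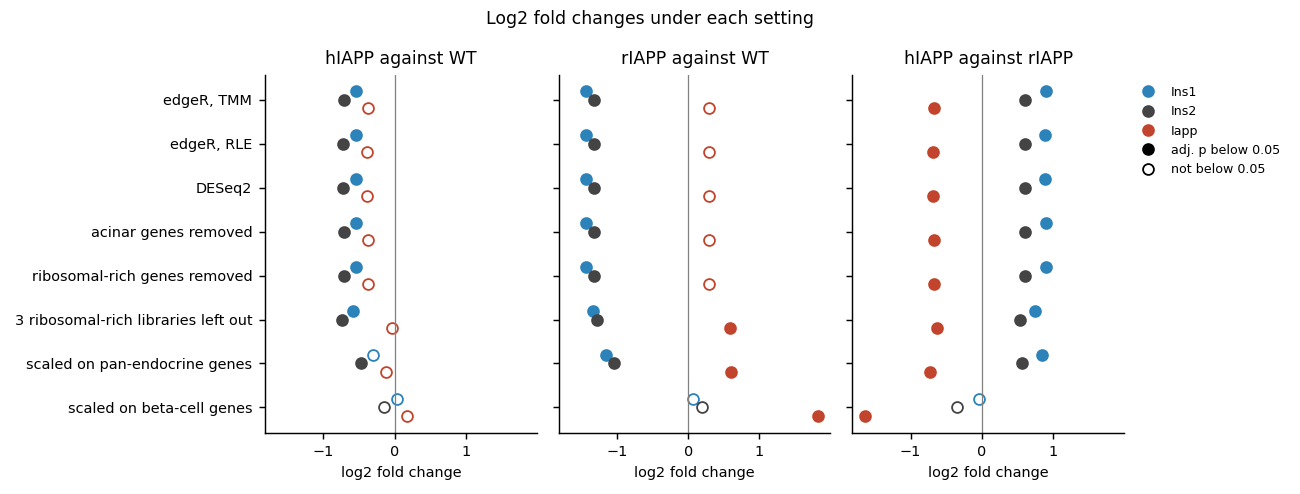
Log2 fold change of Ins1, Ins2 and Iapp in hIAPP against WT, rIAPP against WT and hIAPP against rIAPP under 8 settings; filled points had an adjusted p below 0.05. In rIAPP against WT the insulin genes lie between -1.44 and -1.03 in every setting shown but the scaling on beta-cell genes, where they are at 0.07 and 0.20. The setting without the 3 ribosomal-rich libraries keeps WT 1 as the only WT library.

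Transcription factors and other regulators of the insulin and Iapp genes were followed as a list of 16, all tested. In rIAPP against WT 10 fell and 0 rose, with a median log2 fold change of -0.43, against 0.01 for all genes and 12.6% of them called lower. Pdx1, which binds and activates the insulin promoters, averaged 55.6 ± 4.93 CPM in rIAPP and 129 ± 9.63 in WT (log2 fold change -1.20, edgeR adjusted p = 2.05e-06). Nkx6-1, a beta-cell identity factor, fell by 0.91 on the log2 scale, and Pax6 and Foxa2, factors shared by endocrine cells, fell by 0.42 and 0.44. In hIAPP against WT 5 of 16 fell and 0 rose, with Pdx1 at -0.43, Pax6 at -0.37, Foxa2 at -0.36 and Neurod1 at -0.59 having the smallest p. Leaving out the 3 ribosomal-rich libraries reduced these counts to 4 and 0.

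Enzymes that process both prohormones were a list of 6. In rIAPP against WT 3 fell and 0 rose: Pcsk1, the convertase that makes the first cut in proinsulin, at -2.08 ± 0.127 (edgeR adjusted p = 1.41e-08), Pcsk2, which also cuts pro-IAPP, at -0.87 ± 0.0859 (adjusted p = 2e-06), and Pcsk1n, a convertase inhibitor, at -0.28 (adjusted p = 0.0142). The carboxypeptidase Cpe, at -0.04, and the amidating enzyme Pam, which acts on the end of IAPP, at -0.03, did not pass. In hIAPP against WT Pcsk1 fell by 0.58 and Pcsk2 fell by 0.35 on the log2 scale, the 2 members called, and without the 3 ribosomal-rich libraries 2 fell in rIAPP and 1 in hIAPP. Mean Pcsk1 was 374 ± 50 CPM for hIAPP:hCAST, 308 ± 20.8 for hIAPP, 109 ± 9.46 for rIAPP, 461 ± 43.4 for hCAST and 459 ± 78.1 for WT (SD, n = 3 each).

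Genes of entry into and folding in the endoplasmic reticulum, a list of 25, gave 2 higher and 3 lower in rIAPP against WT and 3 higher and 3 lower in hIAPP against WT. Over all genes 10.7% were called higher and 12.6% lower in rIAPP, and 6.27% and 5.59% in hIAPP, so the rIAPP counts of the list lie near that background. Their median log2 fold changes were 0.19 and 0.15. Ero1lb, an oxidase that acts in the folding of proinsulin, fell in both, to 484 ± 90.2 CPM in rIAPP and 1160 ± 144 in hIAPP, against 2050 ± 244 in WT (log2 fold changes -2.08 and -0.82, edgeR adjusted p = 1.21e-07 and 0.00312). P4hb, protein disulfide isomerase, rose in rIAPP at 0.28, and Pdia6, Sdf2l1 and Creld2 rose in hIAPP at 0.24, 0.34 and 0.38. Without the 3 ribosomal-rich libraries 0 rose and 1 fell in each comparison.

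Of 16 genes of granule storage and release, 1 rose and 7 fell in rIAPP against WT, and 1 rose and 3 fell in hIAPP against WT. Over all genes 10.7% rose and 12.6% fell in rIAPP, and 6.27% rose and 5.59% fell in hIAPP, so the single risen gene is no more than that background in either. Vgf, a granule protein that is cut to peptides, moved in opposite directions: it averaged 29.1 ± 3.85 CPM in hIAPP and 4.68 ± 0.529 in rIAPP, against 13.6 ± 2.75 in WT (log2 fold changes 1.04 and -1.57, edgeR adjusted p = 0.000189 and 6.45e-07). Scg2, secretogranin II, was at -1.03 in rIAPP (adjusted p = 2.02e-06), and Chga, chromogranin A, was at -0.59 in hIAPP (adjusted p = 0.00434). Chga in rIAPP was at -0.14 (adjusted p = 0.405). Without the 3 ribosomal-rich libraries 1 rose and 5 fell in rIAPP, and 1 rose and 1 fell in hIAPP.

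The receptors and degrading proteases of both hormones were 11 genes, of which 10 were tested. In rIAPP against WT 1 rose and 3 fell, and in hIAPP against WT 1 fell, where 10.7% and 12.6% of all genes rose and fell in rIAPP and 5.59% fell in hIAPP. The single genes are close to that background. Igf1r, the receptor of insulin-like growth factor 1, was at -0.65 and Irs1, an adaptor of insulin signalling, at -0.74 in rIAPP (edgeR adjusted p = 0.000332 and 0.00271). Bace2, a protease that can cut IAPP, averaged 175 ± 10.7 CPM in hIAPP and 129 ± 12.1 in rIAPP, against 274 ± 67.5 in WT (log2 fold changes -0.66 and -1.11, edgeR adjusted p = 0.0167 and 0.00017). Ide, the insulin-degrading enzyme, rose in rIAPP at 0.25 (adjusted p = 0.0407), a call that did not hold without the 3 ribosomal-rich libraries, where 0 genes of the list rose. Of the other islet hormones, Sst was the only called gene of 5 in rIAPP against WT, at -0.30 (adjusted p = 0.044), and 0 of 5 were called in hIAPP against WT. Gcg, which encodes glucagon, was at 0.29 in rIAPP (adjusted p = 0.0522) and at 0.10 in hIAPP (adjusted p = 0.57). Without WT 2, 0 of 5 were called in either.

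Across all 15 libraries, the log2 CPM of Ins1 and Ins2 had a Pearson r of 0.949, and r was -0.544 for Ins1 with Iapp and -0.320 for Ins2 with Iapp. These are descriptions over libraries that share groups and scaling. Among 8304 genes with a mean of at least 10 CPM, Ins2 ranked 69 in its r with Ins1, and Ins1 ranked 18 in its r with Ins2. The genes most like Ins1 were Dnajc13 (r = 0.992), Spock1 (0.986), Cttnbp2 (0.985), Prss53 (0.985), Ero1lb (0.983) and Tmem215 (0.982). Deviations from the group means gave r of 0.766 to 0.892 for these 6. Dnajc13, an endosomal co-chaperone, averaged 52.1 ± 6.57 CPM in rIAPP and 99.4 ± 1.53 in WT. The lowest r with Ins1 were those of Cd81 (-0.958), Klhdc8b (-0.955) and Cadps2 (-0.950). For deviations from the group means these were -0.541, -0.302 and -0.677.

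Among the genes most like Ins2 were Ttbk2 (r = 0.969), Ankrd33b (0.969), Ccnd2 (0.968), Ucn3 (0.968) and Nnat (0.965). Taken as deviations from the group means, r was weaker, from 0.390 for Nnat and 0.565 for Ucn3 to 0.779 for Ccnd2. Ucn3, urocortin 3, a hormone of mature beta cells, averaged 146 ± 32.7 CPM in rIAPP and 456 ± 26.5 in WT. Gsto1 (-0.952), Gprc5c (-0.946) and Agap2 (-0.944) had the lowest r. For deviations from the group means their r was -0.578, -0.0495 and -0.684.

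For Iapp the highest r were lower, with Rdh14 (0.918), Sfr1 (0.916), Arid3a (0.910), Psme1 (0.907), Cacnb3 (0.895) and Bag5 (0.894). The strongest relations were inverse: Npc2 (-0.962) and Psap (-0.952), both of lysosomal lipid handling, and Ppp1r3b (-0.951). Psap averaged 702 ± 51.8 CPM in rIAPP and 910 ± 177 in WT. Deviations from the group means gave r of -0.914 for Npc2 and -0.940 for Psap, and WT 2 is the library that gives the WT group its wide Iapp spread.

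The nearest tested genes on each side of the members did not move as a block in rIAPP against WT. Of all tested genes, 23.3% were called there, 10.7% higher and 12.6% lower. Beside Ins1, which has no tested gene within 666450 bases, Add3 was at -0.52 (edgeR adjusted p = 0.000173), and the other 5 neighbours were not called. Beside Ins2, 4 of 6 neighbours were called. Igf2, at a distance of 11840 bases and with a mean of 2.65 CPM, was at -0.78 (edgeR adjusted p = 0.0472). Th, the tyrosine hydroxylase gene, was called lower (adjusted p = 0.00178) and Cd81 was at 1.24 (adjusted p = 6.45e-07). H19, a non-coding RNA gene 100513 bases away with a mean of 0.262 CPM, was at 2.03 (adjusted p = 0.0354). Beside Iapp, Slco1a6 at 89902 bases was at -1.52 (adjusted p = 0.000237), the opposite side of 0 from Iapp, and the covering gene Slco1a5, at a mean of 2.64 CPM, was at -0.82 (adjusted p = 0.0665).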

How the data were processed

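Members and gene lists were chosen with earlier results of these data known. Total RNA had been isolated from islets with the RNeasy Mini Kit and TruSeq (Ribo-Zero) and NuGEN Ovation kits were used for the libraries, per the labels' protocols. The authors deposited raw whole-number counts per gene symbol, and STAR, HTSeq, GRCm38 and mm10 are named, without versions, per the submitters' processing notes. Annotation, strand setting and treatment of multi-mapping reads are not given in the sources used here. The authors also deposited FPKM, which scale as counts per length and per total including ribosomal-rich genes, and these were used for levels per length and as an alternative. The table had 24060 rows, 2 of them repeating a symbol.

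Counts of all genes were fitted with edgeR 4.0.16 in R 4.3.3 (TMM, default filter by group, robust quasi-likelihood, 1 coefficient per group, 15 libraries). Of the rows, 15460 passed, with a common biological coefficient of variation of 0.132. The 10 pairs of groups and the interaction were tested, each adjusted by Benjamini-Hochberg over the 15460 genes, at a threshold of 0.05. CPM are TMM-scaled, and log2 CPM used a prior count of 2. SE is the log2 fold change over the square root of F. Ratios were tested with exact two-sided permutation tests over libraries. The script was tested on simulated data. Alternatives were DESeq2 1.42.0, RLE scaling, no filter, the compared groups alone, removal of acinar or ribosomal-rich genes, scaling on beta-cell or endocrine genes, limma 3.58.1 on log2(FPKM + 1) and log2(FPKM + 0.1), each library left out, and the 3 ribosomal-rich libraries left out. List counts without those libraries were added after seeing the data.

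Named genes followed a rule: the 3 members, the 6 genes with the highest and the 3 with the lowest Pearson r with each member among genes of at least 10 CPM, the 3 nearest tested genes on each side, and up to 4 list members with the smallest p in rIAPP or hIAPP against WT. Cpe and Mafa were named outside it, after their values were seen. 1 gene that the rule names is not reported here. Sequences were read from GENCODE transcripts and the RefSeq promoter table, in which 2 of the 3 members were found. Counting error is small at these depths, and it covers counting only.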

Additional observations from a re-analysis of the deposited data

How the results depend on the processing

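Library quality, line and scaling limit these results. WT 2 retained 1667190 counts outside ribosomal-rich genes, and it sets the WT level of Iapp. RLE scaling and removal of acinar or ribosomal-rich genes left the direction and call of all 33 differences as they were. Of 306 values from fits without 1 library, 12 lost a call, 1 gained one and 10 changed sign. In leave-one-out fits Ins1 ranged from -0.61 to -0.51 in hIAPP against WT, from -0.58 to -0.41 in hIAPP:hCAST against WT and from -0.040 to 0.13 in hIAPP:hCAST against hIAPP. Iapp ranged from -0.51 to 0.0022 in hIAPP:hCAST against WT, from -0.51 to 0.0003 in hCAST against WT, from 0.14 to 0.66 in rIAPP against WT, from -0.72 to -0.63 in hIAPP against rIAPP, from -0.044 to 0.028 in hIAPP:hCAST against hCAST and from -0.022 to 0.051 in hIAPP:hCAST against hIAPP. The log2 Iapp to insulin ratio of hCAST against WT ranged from -0.16 to 0.27. That ratio was 0.027 in FPKM, 0.095 against Ins2 alone and 0.31 without the 3 ribosomal-rich libraries.

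DESeq2 gave 4 further calls: Ins2 at -0.39 in hCAST against WT and at -0.40 in hIAPP:hCAST against hCAST, and Ins1 at -0.36 and Ins2 at -0.33 in hIAPP against hCAST. Fitted on the compared groups alone, calls were lost for Iapp (-0.69) and Ins2 (0.59) in hIAPP against rIAPP and for Ins1 in hIAPP:hCAST against WT (-0.51), and Iapp was at 0.0043 in hIAPP:hCAST against hCAST. That setting gained 2 calls, Ins1 (-0.36) and Ins2 (-0.33) in hIAPP against hCAST. Ins1 in hIAPP:hCAST against WT was not called without the filter (-0.50). Without the 3 ribosomal-rich libraries Ins1 was at -0.54 there and Iapp in rIAPP against WT at 0.59, both with WT 1 as the only WT library. Apart from the smaller fits named, the cause was not tested.

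Scaling on beta-cell genes holds those genes level by construction. Ins1 was then at -0.093 in hIAPP:hCAST against hIAPP, -0.13 against rIAPP, 0.024 against hCAST and -0.064 against WT. It was at -0.0399 in hIAPP against rIAPP, 0.12 against hCAST and 0.029 against WT, at 0.16 in rIAPP against hCAST and 0.069 against WT, and at -0.005 for the interaction. Ins2 was at -0.55 in hIAPP:hCAST against rIAPP and -0.35 against WT, at -0.35 in hIAPP against rIAPP, 0.15 against hCAST and -0.15 against WT, and at 0.50 in rIAPP against hCAST and 0.20 against WT. Iapp was at -0.11 in hIAPP:hCAST against hIAPP, 0.35 against hCAST and 0.073 against WT, at 0.45 in hIAPP against hCAST and 0.18 against WT, and at 1.82 in rIAPP against WT. Scaling on endocrine genes gave Ins1 -0.064 in hIAPP:hCAST against hIAPP, -0.37 in hIAPP:hCAST against WT and -0.31 in hIAPP against WT. It gave Iapp -0.077 in hIAPP:hCAST against hIAPP, 0.057 in hIAPP:hCAST against hCAST, 0.13 in hIAPP against hCAST and 0.60 in rIAPP against WT.

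In FPKM, whose totals include ribosomal-rich reads, the median of all genes against WT was 0.804 to 1.3 with a pseudocount of 1 and 1.27 to 1.875 with 0.1. The member values hold for either pseudocount. Ins1, Ins2 and Iapp were at 1.55, 1.27 and 1.76 in hIAPP:hCAST against WT, at 1.46, 1.28 and 1.68 in hIAPP against WT, at -0.012, 0.12 and 1.80 in rIAPP against WT, and at 1.83, 1.62 and 1.72 in hCAST against WT. They were at 1.47, 1.17 and -0.12 in hIAPP against rIAPP and at -1.74, -1.64 and -1.64 for the interaction, and Iapp was at 0.043 in hIAPP:hCAST against hCAST. No limma adjusted p was below 0.05 for a member. No paired analysis was possible because the groups share no replicate numbers in the labels, and the library numbers used here only follow accession order.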
